A study of Mus musculus with 78 samples.

Results

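The nuclear-encoded subunits of the respiratory chain and of ATP synthase were described by respiratory complex in mouse cerebral arteries. The set was taken by gene name from the protein-coding genes of the deposited table and held 85 of 54532 genes. By symbol, 35 belonged to complex I (Nduf), 4 to complex II (Sdh), 8 to complex III (Uqcr), 20 to complex IV (Cox4 to Cox8) and 18 to complex V (Atp5). Ndufa4 and its paralogue Ndufa4l2, named for complex I, were counted with complex IV. Levels are in FPKM (fragments counted for a gene, scaled for its length and by a factor for each library). A level of at least 1 FPKM in at least 3 libraries was reached by 82 of the 85 genes, and these were tested.

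RNA of the cerebral arteries of male wild-type C57Bl6 mice was sequenced in 78 libraries. The mice had eaten ad libitum (AL) or had been kept on intermittent fasting (IF) for 3 months. Surgery followed, either sham or a narrowing of both carotid arteries (bilateral carotid artery stenosis, BCAS) that lowers blood flow to the brain. Arteries were taken 1, 7, 14, 21 or 30 days after surgery, which gave 20 groups: sham AL, sham IF, BCAS AL and BCAS IF, each on 5 days. Each group had 4 libraries, except BCAS AL day 1 and sham IF day 7 with 3. Day 7 is given by the group labels alone. BCAS mice with AL feeding carry the stenosis alone, and both IF arms carry the 3 months of fasting, so sham IF differs from sham AL by diet only. Age at surgery, the hours of fasting and whether a library holds the arteries of 1 mouse or of several are not stated in the sources used here, so the p-values measure the spread between libraries.

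Oxidative phosphorylation takes electrons from NADH at complex I and from succinate at complex II, passes them through complex III and cytochrome c to oxygen at complex IV, and uses the proton gradient that results to make ATP at complex V. Most subunits are encoded in the nucleus and imported, and the core of every complex except II also holds subunits encoded by mitochondrial DNA. Several complex IV subunits and the c ring of ATP synthase have paralogues that are used in different tissues. Vascular smooth muscle meets much of its energy need by oxidative phosphorylation, while endothelial cells rely more on glycolysis.

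The promoters of 4 genes on which the results below turn are shown: Ndufv3 and Cox5b, marker genes of the set, Cox6b1, called in both comparisons on day 7 and in 2 tests across days, and Atp5k, which varied most in complex V. Each sequence covers 250 bases before and 50 after the annotated start, 5′ to 3′ along the gene's strand, from RefSeq on GRCm38.p6. Capitals mark the letters CCGGAAG of an ETS factor core, here as the reverse complement CTTCCGG, and, upstream of it in Atp5k only, the palindrome that serves as the motif of the nuclear respiratory factor NRF1; sequences with no capitals hold none of the motifs searched. They lie at chr17:31519865-31520164 on the plus strand (Ndufv3), chr1:36691237-36691536 on the plus strand (Cox5b), chr7:30626065-30626364 on the minus strand (Cox6b1) and chr5:108434350-108434649 on the minus strand (Atp5k).
Ndufv3: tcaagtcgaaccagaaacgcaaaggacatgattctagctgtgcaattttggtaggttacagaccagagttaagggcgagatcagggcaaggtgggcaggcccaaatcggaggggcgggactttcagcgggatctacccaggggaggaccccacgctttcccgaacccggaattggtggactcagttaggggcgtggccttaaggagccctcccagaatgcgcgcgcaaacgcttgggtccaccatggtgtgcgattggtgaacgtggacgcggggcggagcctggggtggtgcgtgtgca
Cox5b: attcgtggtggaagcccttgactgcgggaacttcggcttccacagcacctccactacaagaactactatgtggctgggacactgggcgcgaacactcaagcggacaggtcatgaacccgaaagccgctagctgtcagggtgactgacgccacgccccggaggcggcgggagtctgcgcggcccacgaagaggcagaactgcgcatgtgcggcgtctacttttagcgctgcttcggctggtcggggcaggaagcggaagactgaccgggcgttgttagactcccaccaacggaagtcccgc
Cox6b1: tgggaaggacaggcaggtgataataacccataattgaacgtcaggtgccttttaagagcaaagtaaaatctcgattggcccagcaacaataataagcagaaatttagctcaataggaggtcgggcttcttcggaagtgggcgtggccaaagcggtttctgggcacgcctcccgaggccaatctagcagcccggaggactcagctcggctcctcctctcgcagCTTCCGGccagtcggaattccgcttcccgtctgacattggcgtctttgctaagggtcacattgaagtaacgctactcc
Atp5k: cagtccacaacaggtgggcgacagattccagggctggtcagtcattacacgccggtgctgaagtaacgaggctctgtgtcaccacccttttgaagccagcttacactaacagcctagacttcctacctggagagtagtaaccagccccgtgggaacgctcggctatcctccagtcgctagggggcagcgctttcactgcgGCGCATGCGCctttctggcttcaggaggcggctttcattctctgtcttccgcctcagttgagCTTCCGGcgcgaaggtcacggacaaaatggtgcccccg

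Of the 85 genes, 66 were matched to 71 RefSeq promoters of 300 bases, and the motifs were searched on both strands. The ETS letters stood in 22.5% of the members' promoters, against 8.86% of all 32851 promoters and 11.6% of the 21263 promoters of coding genes. They were found for 16 genes, among them Sdhb and Sdhd of complex II, Uqcr11 and Uqcrh of complex III, and Cox8a, the most abundant member. The NRF1 letters stood in the promoters of 5 genes (Atp5g2, Atp5k, Cox6a1, Ndufa11 and Uqcrc1), which is 7.04% of the members' promoters against 0.971% of all. AAGATGGCG, a form of the YY1 motif, stood in 7 (9.86% against 1.40% of all). At least 1 of the 3 motifs stood in 35.2% against 10.8% of all. Among promoters of coding genes, which all members are, the shares were 1.33% for NRF1, 1.83% for YY1 and 14.1% for at least 1 motif. These are matches of letters and not measurements of binding.

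All 5 defining markers of smooth muscle were present in every library (Acta2, smooth muscle actin, at 1757 to 7630 FPKM), as were those of endothelium (Pecam1 at 39.7 to 94.8 FPKM) and pericytes (Rgs5 at 15.4 to 44.7 FPKM). Vtn, another pericyte marker, was at 1466 to 2146 FPKM and made up most of the pericyte sums given below. Heart and skeletal muscle, whose respiratory subunits could enter this set, were close to absent: their 7 markers summed to 1.84 to 35.2 FPKM, and Myh7 was at 0 in 52 libraries. Of the 2 brown fat markers, Ucp1 was at 0 in 61 libraries, while Cidea was at 0.956 to 4.70 FPKM. The brown fat sums given below are therefore nearly all Cidea. The 5 oligodendrocyte markers summed to 5.09 to 180.5 FPKM and 6 neuronal ones to 0.954 to 13.3 FPKM. Other cells were plainly present. Markers of microglia and macrophages summed to 418 to 744 FPKM, of fibroblasts and leptomeninges to 307 to 560 FPKM and of astrocytes to 44.9 to 115 FPKM. Those of red blood cells (25.8 to 3019 FPKM) and of pituitary (2.15 to 5646 FPKM) differed widely between libraries. Gh of the pituitary reached 4974 FPKM in sham IF day 21 replicate 2. The libraries held 14601572 to 25944175 fragments assigned to genes, as recovered from the FPKM values. The 82 members took 1.07% to 1.83% of these fragments (median 1.51%), and the mitochondrially encoded subunits took 4.49% to 7.43%. In 3 libraries, genes shorter than 300 bases took over 0.2% of the fragments (0.279% to 0.322%). These were replicates 2 and 4 of sham AL day 7 and replicate 2 of BCAS AL day 1.

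Member transcripts were abundant, with a median of the 82 mean levels of 97.9 FPKM. By complex, the median of the mean levels was 83.4 FPKM for complex I (3.32 to 248), 67.9 FPKM for complex II (65.0 to 97.7) and 151 FPKM for complex III (36.8 to 327). It was 126 FPKM for complex IV (1.47 to 1114) and 111 FPKM for complex V (5.05 to 235). The 4 subunits of succinate dehydrogenase thus lay within a range of levels far narrower than the members of any other complex.

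At the top of each complex stood Ndufa2, an accessory subunit of complex I, at 248 ± 38.4 FPKM (SD, n = 78), Sdhd, a membrane anchor of complex II, at 97.7 FPKM, and Uqcr10 of complex III at 327 FPKM. Complex IV was led by Cox8a at 1114 ± 162 FPKM (498 to 1469), the highest level in the set. Atp5b, the catalytic beta subunit of ATP synthase, led complex V at 235 ± 14.4 FPKM (203 to 274). The lowest means were those of Ndufb2 (3.32 FPKM, over an annotated length of 5628 bases), Sdhb, the iron-sulphur subunit of complex II (65.0), Uqcrc2, a core protein of complex III (36.8), Cox8b (1.47) and Atp5s, a coupling factor (5.05). Not tested were Cox7b2, with a mean of 0.0482 FPKM and a maximum of 0.505, Cox8c with a maximum of 0.203, and a second gene entry named Atp5o (ENSMUSG00000116933), listed at 0 in every library.

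**Figure D1:**
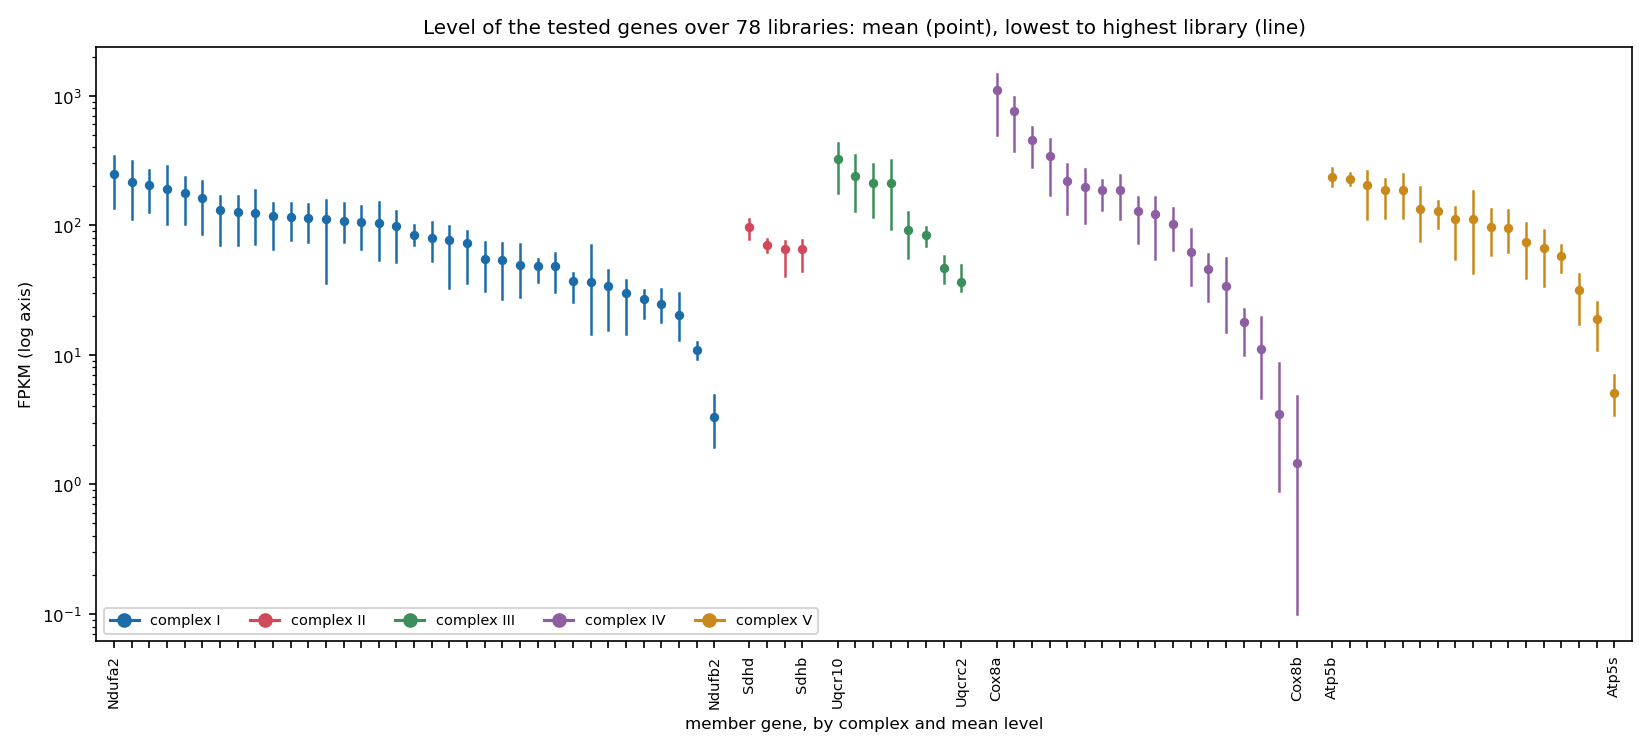
Mean level of each of the 82 tested genes over 78 libraries in FPKM (log axis), by respiratory complex, with lines from the lowest to the highest library; the highest and lowest gene of each complex are named, and a lowest value of 0, that of Cox8b, is drawn at 0.1. Complex II spans 65.0 to 97.7 FPKM and complex IV 1.47 to 1114 FPKM.

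Among paralogues, the widely used forms dominated in these arteries. Cox4i1 was at 453 FPKM and Cox4i2, the form known from lung and from cells under low oxygen, at 11.2 FPKM. Cox6a1 was at 758 FPKM and Cox6a2, a heart and skeletal muscle form, at 3.48 FPKM. Cox8a at 1114 FPKM stood against 1.47 FPKM of the muscle form Cox8b.

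Other paralogues stood closer together. Cox7a1, the heart and skeletal muscle form of subunit VIIa, was present at 34.2 FPKM beside Cox7a2 at 198 FPKM and Cox7a2l, a supercomplex assembly factor, at 187 FPKM. Cox6b2, known from testis, reached 62.2 FPKM beside Cox6b1 at 342 FPKM. Cox7b was at 130 FPKM. Ndufa4 was at 187 FPKM and its hypoxia-responsive paralogue Ndufa4l2 at 18.0 FPKM. Of the 3 genes for the same c subunit of ATP synthase, Atp5g3 was at 189, Atp5g2 at 112 and Atp5g1 at 18.9 FPKM. The annotated lengths used for scaling were 2181, 1675 and 4912 bases, although the coding lengths were 423, 438 and 408 bases. Gaps in FPKM between genes therefore depend in part on the annotated length. Near-identical copies, processed pseudogenes included, may share reads with these genes, and how such reads were counted is not given in the sources used here.

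By the medians of length classes, how much a member varied between the 20 groups followed the length of its coding sequence. The SD of the 20 group means of log2(FPKM + 1) had a median of 0.13 over the members and 0.12 over all 15707 tested genes. Complex II had the lowest median (0.07), and complexes I, III, IV and V had 0.13, 0.13, 0.14 and 0.12. Complex II also had the longest median coding sequence, at 676.5 bases, against 447, 300, 264 and 438 bases in complexes I, III, IV and V. The members with coding sequences under 300 bases had a median SD of 0.15 (22 genes), those of 300 to under 600 bases 0.13 (39 genes) and those of 600 bases or more 0.07 (21 genes). Ndufv3, with 1404 bases, went against this order, with the highest SD of the longest class (0.15). All tested genes of those length classes with a mean of at least 10 FPKM showed the same order, at 0.14, 0.11 and 0.09. Coding sequences under 450 bases were held by 58.5% of the members and by 6.13% of all tested genes, so length and membership overlap strongly, and the larger shifts of the members below are therefore set beside the 963 tested genes with coding sequences under 450 bases, which include 48 of the members.

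The most variable members were Ndufa12 in complex I (SD of group means 0.25), Sdhc in complex II (0.09), Uqcr11 in complex III (0.20), Cox7a1 in complex IV (0.27) and Atp5k in complex V (0.26). The steadiest were Ndufs1, the largest complex I subunit (0.06, 9.31 to 12.6 FPKM over 78 libraries), Sdha, the flavoprotein of complex II (0.04, 61.8 to 78.9 FPKM), and Uqcrfs1, the Rieske iron-sulphur protein (0.05). In complexes IV and V they were Cox7a2l (0.06) and Atp5a1, the alpha subunit of ATP synthase (0.05). Ndufa12 varied as widely within groups as between them: sham IF day 21 alone held 41.8, 34.9, 70.3 and 30.9 FPKM, and limma called it in none of the comparisons described below.

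**Figure D2:**
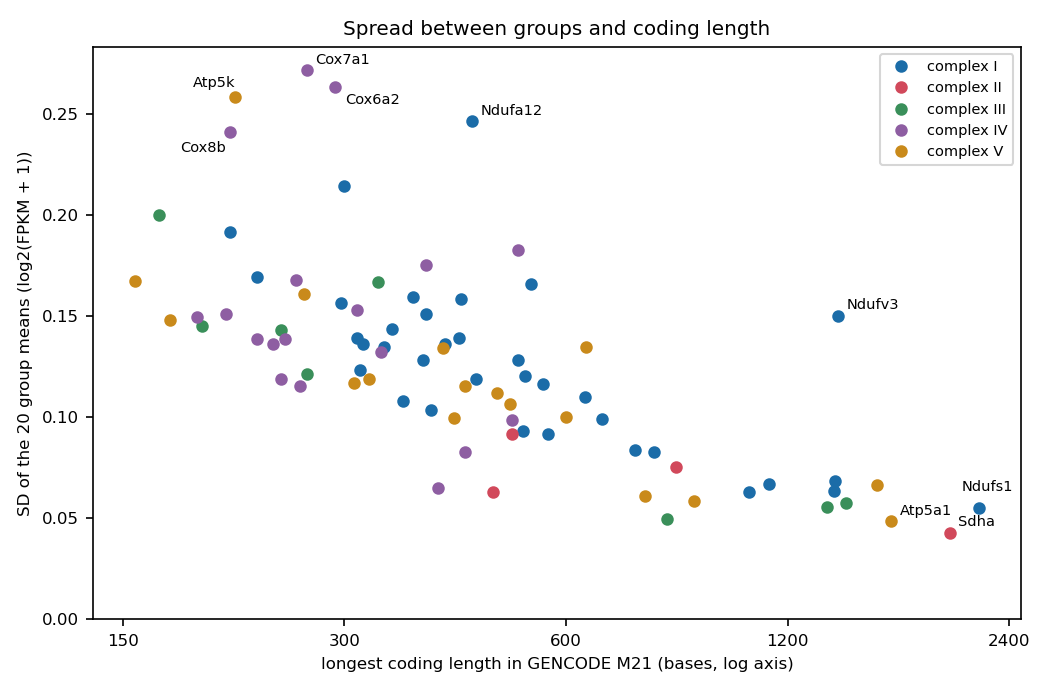
SD of the 20 group means of log2(FPKM + 1) of each member against its coding length in bases (log axis), coloured by complex. The members of 600 bases or more, with a median SD of 0.07, lie below most members under 300 bases, with a median of 0.15.

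The members of several complexes were high or low together in single libraries. The deviation of a library was taken as the mean, over the 82 members, of log2(FPKM + 1) minus each gene's own mean over 78 libraries. Sham AL day 7 replicate 4 stood apart at -0.69, and 68 of the 82 members had their lowest level of all 78 libraries there. Its deviations by complex were -0.74 for I, -0.35 for II, -0.64 for III, -0.74 for IV and -0.64 for V. Complex II was the least displaced, and the part of coding length in this was not tested. The median of all tested genes in this library was -0.07, and that of tested genes with coding sequences under 450 bases was -0.52.

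The other libraries of sham AL day 7 were at 0.12, -0.25 and -0.30 (replicates 1 to 3). Sham AL day 7 replicate 4 also had the lowest smooth muscle level of all libraries (a mean log2 level of the 5 markers of 6.80; the 5 markers summed to 2063 FPKM in it and to a median of 5853 FPKM over all libraries). It had the highest mean log2 levels of the fibroblast and leptomeninges markers (6.50, against a median of 5.90) and of the astrocyte markers (4.22, against 3.51), and the fewest fragments. In bulk arteries, fewer cells of a type and less RNA per cell cannot be told apart. The highest deviations were those of BCAS IF day 21 replicate 4 (0.29, with 25 members at their highest) and sham AL day 1 replicate 1 (0.28, with 23). BCAS IF day 21 replicate 4 also held the highest red blood cell level (the 5 markers summed to 3019 FPKM, against a median of 109 over all libraries). Its share of fragments from mitochondrially encoded subunits was the lowest of all libraries (4.49%). The ratio of the members' share to that share was 0.408 in it, and the next highest library had 0.293. The part of these cell markers and of short-gene content in the members' levels was not tested.

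**Figure D3:**
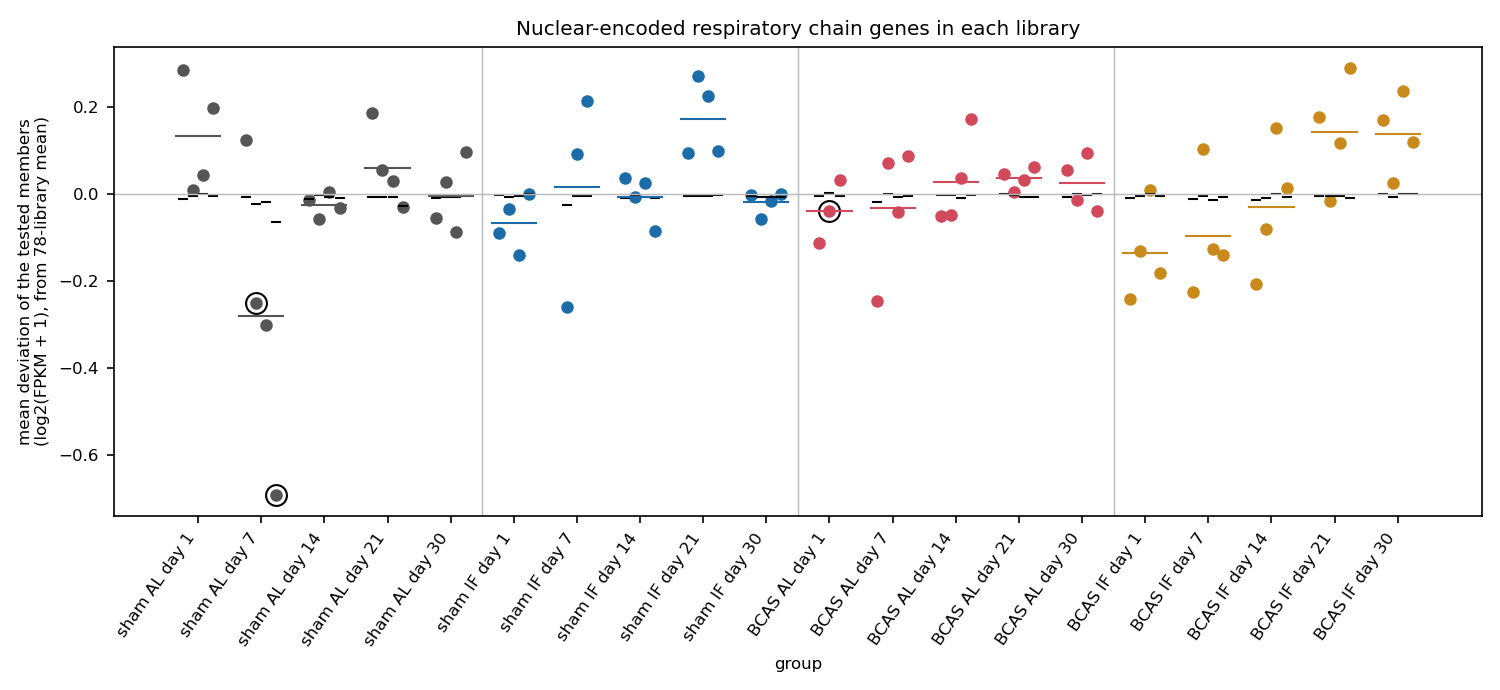
Mean deviation of the 82 members, in log2(FPKM + 1), for each library (points) by group, with the group mean (coloured line) and the median of all tested genes (black dashes); circles mark the 3 libraries with over 0.2% of fragments in genes under 300 bases. Sham AL day 7 runs from -0.69 to 0.12, the widest range of any group.

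On day 7, BCAS with AL feeding was compared with sham AL, which asks what the stenosis changed at that time. By limma with Benjamini-Hochberg adjustment over all tested genes, 6 of 82 members were higher after BCAS and none lower, against 1.64% of all tested genes called higher. They were 4 subunits of complex I (Ndufv3, Ndufa3, Ndufb4 and Ndufa8) and 2 of complex IV (Cox5b and Cox6b1). Sham AL day 7 is also the control of the diet comparison on that day, so both comparisons share its libraries.

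Ndufv3 encodes a subunit of the NADH-oxidising part of complex I (chromosome 17, 31520115 to 31531326, plus strand). It was at 50.5, 36.4, 35.4 and 28.2 FPKM in sham AL day 7 and at 43.8, 60.6, 49.3 and 53.4 FPKM in BCAS AL day 7. Replicate 1 of the sham group lay among the BCAS libraries, so the groups overlapped. The mean was 37.6 ± 9.32 FPKM (SD, n = 4) against 51.8 ± 7.07 FPKM, and the log2 difference was 0.47 ± 0.11 (SE; limma, adjusted p = 0.0136).

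Cox5b, a subunit of complex IV that stabilises its catalytic core (chromosome 1, 36691449 to 36693681, plus strand), was at 125, 81.0, 86.8 and 54.5 FPKM in sham AL day 7 and at 92.5, 131, 122 and 128 FPKM after BCAS. The groups overlapped here too, with sham replicate 1 above BCAS replicate 1. The log2 difference was 0.49 ± 0.13 (SE; limma, adjusted p = 0.0330). Cox5a (chromosome 9, 57521274 to 57532426, plus strand), the third marker of the set and the partner of Cox5b at the matrix face of complex IV, was not called. It was at 52.0, 39.6, 50.0 and 26.2 FPKM in sham AL day 7 and at 43.3 to 48.7 FPKM after BCAS, with a log2 difference of 0.15 ± 0.10 (SE; limma, adjusted p = 0.411).

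The remaining called members repeated the pattern of a low sham replicate 4. Ndufa3, an accessory complex I subunit, was at 118, 70.5, 80.3 and 36.1 FPKM in sham AL day 7 and at 87.6 to 123 FPKM after BCAS, with a log2 difference of 0.62 ± 0.16 (SE; limma, adjusted p = 0.0296). Cox6b1 was at 347, 242, 256 and 172 FPKM against 283 to 373 FPKM (log2 difference 0.43 ± 0.12, limma adjusted p = 0.0377). Ndufb4 (0.44 ± 0.12, limma adjusted p = 0.0399) and Ndufa8 (0.37 ± 0.11, limma adjusted p = 0.0484) had differences of like size. For none of the 82 members were the libraries of the groups separated without overlap, against 2.42% of all tested genes that were separated with BCAS higher.

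Over the 82 members the median log2 difference on day 7 was 0.25, and 77 were higher after BCAS. The median over all tested genes was 0.01 and that over tested genes with coding sequences under 450 bases was 0.18. The 6 calls depended on single libraries: no member was called without sham AL day 7 replicate 4, BCAS replicate 2 or BCAS replicate 4, 1 without BCAS replicate 3, 24 without BCAS replicate 1 and 58 without sham replicate 1. The marker gene Cox5b also lost its call without sham replicate 2. No member was called without the 3 libraries rich in short-gene fragments or with only the compared groups in the fit. The neuronal markers summed to 1.88 to 13.3 FPKM in sham AL day 7 and to 1.53 to 4.09 after BCAS, and 2 of 5 tested fell. Those of oligodendrocytes summed to 16.6 to 159 and to 9.40 to 23.7, and 1 of 5 fell. Of the 5 microglia and macrophage markers, which summed to 418 to 556 and to 589.8 to 641 FPKM, 2 rose. Smooth muscle markers summed to 2063 to 5718 FPKM in sham (median 5339) and to 3039 to 5641 FPKM after BCAS (median 4669). Endothelial markers summed to 536 to 679 FPKM in sham and to 682 to 808 FPKM after BCAS, without overlap, and none of the 6 was called. Their part in the members' differences was not tested.

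The diet comparison in sham arteries on day 7 called 27 of 82 members higher with IF and none lower, against 4.79% of all tested genes called higher. By complex these were 14 of 35 in I, 1 of 4 in II, 3 of 8 in III, 5 of 18 in IV and 4 of 17 in V. The lowest adjusted p-values belonged to Ndufa1, Ndufa9, Cox6b1, Ndufv1, Ndufb4 and Atp5a1. Their libraries are those of sham AL day 7 already given and 3 libraries of sham IF.

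Ndufa1, an accessory subunit needed to assemble complex I, was at 193, 108, 144 and 102 FPKM in sham AL and at 162, 235 and 231 FPKM in sham IF. The groups overlapped through sham AL replicate 1. The log2 difference was 0.64 ± 0.16 (SE; limma, adjusted p = 0.00672). Ndufv1, which carries the NADH binding site, was at 53.9, 42.5, 44.0 and 36.2 FPKM against 51.6, 52.9 and 54.3 FPKM (log2 difference 0.27 ± 0.07, limma adjusted p = 0.0123). Here too it was sham AL replicate 1 that lay within the IF range.

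Ndufa9 was at 25.7 to 35.9 FPKM in sham AL and at 41.1, 35.1 and 41.5 FPKM in sham IF (log2 difference 0.28 ± 0.07, limma adjusted p = 0.00944). The differences of Cox6b1 (0.49 ± 0.13, limma adjusted p = 0.0118) and Ndufb4 (0.49 ± 0.13, limma adjusted p = 0.0133) were larger, and that of Atp5a1 (0.16 ± 0.04, limma adjusted p = 0.0154) was smaller. Of the marker genes, Cox5b was called at 0.44 ± 0.14 (limma, adjusted p = 0.0373) and Ndufv3 at 0.35 ± 0.12 (limma, adjusted p = 0.0480), while Cox5a at 0.20 ± 0.11 was not (limma, adjusted p = 0.228). Atp5k, subunit e of ATP synthase and the most variable member of complex V, was at 117, 42.6, 60.0 and 47.0 FPKM against 61.9, 157 and 132 FPKM, with a log2 difference of 0.82 ± 0.24 (SE; limma, adjusted p = 0.0222).

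Across the 82 members the median difference between IF and AL in sham on day 7 was 0.29 in log2, with 80 higher, against 0.01 over all tested genes and 0.17 over those with short coding sequences. Sdhd was the 1 member separated without overlap, against 4.59% of all tested genes with IF higher. It was at 98.6, 88.8, 94.8 and 83.3 FPKM in sham AL and at 107, 101 and 107 FPKM in sham IF (log2 difference 0.20 ± 0.06, limma adjusted p = 0.0206). The counts turned on single libraries: 1 member was called without sham AL day 7 replicate 4, none without sham IF replicate 3, 3 without sham IF replicate 2, 65 without sham AL replicate 1 and 60 without sham IF replicate 1. The call of Cox5b was also lost without sham AL replicate 2. No member was called without the libraries rich in short-gene fragments or with only the compared groups in the fit. The smooth muscle markers summed to 2063 to 5718 FPKM in sham AL and to 3614 to 5681 FPKM in sham IF. The oligodendrocyte markers summed to 16.6 to 159 FPKM and to 19.5 to 66.5 FPKM. Of the 5 pericyte markers, which summed to 1562 to 1812 FPKM and to 1901 to 2220 FPKM, 1 rose, as did 1 of the 5 of microglia and macrophages (418 to 556 and 494 to 692 FPKM). The part of these markers in the differences was not tested.

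In BCAS IF on day 7 the members were near the levels of BCAS AL, and the diet comparison after BCAS called none by limma or by limma-voom, with 0 at an unadjusted p under 0.05 and 2.25% of all tested genes called. Ndufv3 was at 42.0, 51.7, 45.3 and 39.8 FPKM there and Cox5b at 102, 143, 105 and 110 FPKM. The interaction of BCAS and diet on day 7 had a median of -0.33 over the members, with 80 of 82 below 0, and a median of -0.19 over tested genes with short coding sequences. No member was called for it by limma or by limma-voom, 50 had an unadjusted p under 0.05, and 0.0318% of all tested genes were called. The smallest p was that of Sdhd (-0.29 ± 0.08, limma adjusted p = 0.155). Leaving out each library in turn gave 0 to 33 called members for this interaction, with 33 reached without sham AL day 7 replicate 1. The interaction also uses sham AL day 7 replicate 4, where 68 of the 82 members had their lowest level.

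**Figure D4:**
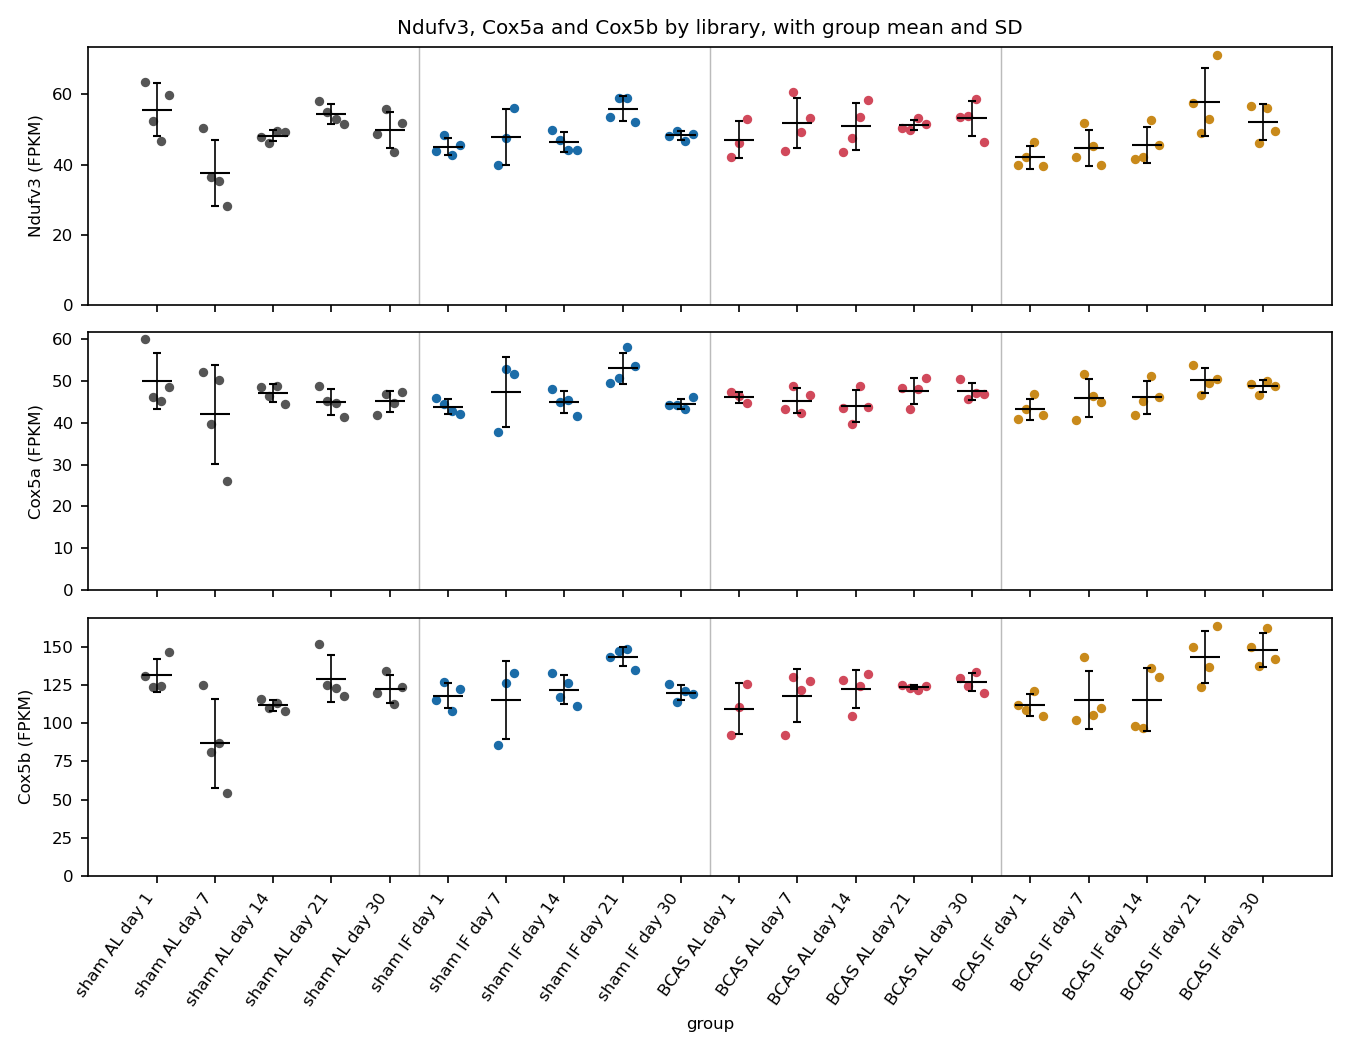
Levels of Ndufv3, Cox5a and Cox5b in FPKM in each library (points) by group, with mean ± SD (bars; n = 4, or 3 in BCAS AL day 1 and sham IF day 7). The lowest library for all 3 genes is sham AL day 7 replicate 4, at 28.2, 26.2 and 54.5 FPKM.

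On day 1 after sham surgery, 4 of 82 members were lower with IF than with AL and none higher, against 1.85% of all tested genes called lower. They were Atp5b and Atp5f1 of ATP synthase and Ndufs8 and Ndufs4 of complex I. Both complex I genes encode proteins of its peripheral arm, which takes electrons from NADH.

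Atp5b (chromosome 10, 128083273 to 128090391, plus strand) was at 272, 250, 247 and 251 FPKM in sham AL day 1 and at 231, 227, 208 and 219 FPKM in sham IF day 1. Every AL library was above every IF library. Its mean was 255 ± 11.4 FPKM (SD, n = 4) against 221 ± 10.3 FPKM, and the log2 level fell by 0.20 ± 0.05 (SE; limma, adjusted p = 0.0139).

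Ndufs8, an iron-sulphur subunit of complex I, was at 146, 118, 116 and 145 FPKM with AL and at 98.4, 101, 103 and 105 FPKM with IF. These groups did not overlap either. The log2 level fell by 0.35 ± 0.09 (SE; limma, adjusted p = 0.0143). Atp5f1, subunit b of the peripheral stalk, was at 57.9 to 70.5 FPKM with AL and at 51.7 to 55.9 FPKM with IF, and fell by 0.23 ± 0.06 in log2 (SE; limma, adjusted p = 0.0181). Ndufs4, at 24.4 to 32.0 against 19.8 to 23.4 FPKM, fell by 0.32 ± 0.09 in log2 (SE; limma, adjusted p = 0.0202), again with no overlap.

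The median over the 82 members on day 1 in sham was -0.20, with 74 lower under IF, against 0.00 over all tested genes and -0.12 over those with short coding sequences. The libraries of 27 members were separated with IF lower, against 4.74% of all tested genes. Deviations were 0.28, 0.01, 0.04 and 0.20 in sham AL day 1 and below 0 in all 4 libraries of sham IF day 1 (lowest -0.14), with group means of 0.13 ± 0.13 and -0.07 ± 0.06 (SD, n = 4). The count was 0 without sham AL day 1 replicate 1 and 9 without replicate 2 of that group, and 1 without sham AL replicate 4, sham IF replicate 2 or sham IF replicate 3. It was 0 with only the compared groups in the fit, 12 with the gene-length trend removed and 13 without the libraries rich in short-gene fragments. Smooth muscle markers summed to 4590 to 8623 FPKM in sham AL day 1 and to 5182 to 6400 FPKM in sham IF day 1. Endothelial markers summed to 610.0 to 742 FPKM with AL and to 738 to 844 FPKM with IF, nearly without overlap and opposite in direction to the members. No tested gene of the smooth muscle or endothelial list was called. Pituitary markers summed to 3.52 to 77.5 FPKM with AL and to 34.6 to 2596 FPKM with IF. Red blood cell markers summed to 28.5 to 92.4 FPKM and to 70.4 to 120 FPKM. The diets overlapped for both of these sums. The part of all these markers in the members' differences was not tested.

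On the same day, BCAS AL lay below sham AL as well, with a median of -0.16 over the members and 79 lower, and a median of -0.06 over tested genes with short coding sequences. No member was called by limma or by limma-voom, 18 had an unadjusted p under 0.05, and 0.376% of all tested genes were called. The libraries of 19 members were separated with BCAS lower, against 4.67% of all tested genes. BCAS AL day 1 had only 3 libraries, and its replicate 2 was among those rich in short-gene fragments (0.279%). Atp5b was at 226, 224 and 226 FPKM in BCAS AL day 1, below all 4 sham AL libraries and within the range of sham IF. The smallest p was that of Sdha (log2 difference -0.14, limma adjusted p = 0.124), at 71.0, 64.4 and 61.8 FPKM after BCAS and 69.1 to 76.5 FPKM in sham. Both comparisons on day 1 share the sham AL libraries. The red blood cell markers summed to 374 to 1894 FPKM in BCAS AL day 1 and to 28.5 to 92.4 FPKM in sham AL day 1, and all 5 rose. Without overlap, the sums of pituitary markers were higher after BCAS (159 to 302 against 3.52 to 77.5 FPKM), and those of pericytes (1642 to 1725 against 1740 to 1910 FPKM), of skeletal and heart muscle (2.25 to 3.35 against 3.44 to 4.15 FPKM) and of brown fat (0.956 to 2.21 against 2.35 to 2.96 FPKM) were lower. None of the tested genes of these 4 lists was called, and 1 of 5 astrocyte markers fell. The part of these markers in the members' lower levels was not tested.

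Within BCAS IF, the levels of 16 of 82 members changed with day, against 5.23% of all tested genes. These were 7 of complex I, 2 of complex III, 4 of complex IV and 3 of complex V. Over all 82 members, called or not, the deviations were -0.14 ± 0.11 (SD, n = 4) on day 1, -0.10 ± 0.14 on day 7, -0.03 ± 0.15 on day 14, 0.14 ± 0.13 on day 21 and 0.14 ± 0.09 on day 30.

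Uqcr11, the smallest subunit of complex III (chromosome 10, 80402997 to 80406830, minus strand), had the lowest adjusted p (limma F test, 0.00672). It was at 167, 184, 241 and 176 FPKM on day 1 and at 197, 251, 179 and 205 FPKM on day 7. On day 14 it was at 169, 210, 273 and 262 FPKM. On days 21 and 30 it was at 308, 243, 275 and 346 FPKM and at 309, 258, 309 and 308 FPKM. All 8 libraries of days 21 and 30 were thus above all 4 of day 1, by means of 293 and 296 against 192 FPKM.

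Cox7a1, the muscle-type subunit (chromosome 7, 30184144 to 30186078, plus strand), changed with day as well (limma F test, adjusted p = 0.0104). It was at 18.7, 22.1, 30.4 and 23.9 FPKM on day 1, at 24.3 to 30.9 FPKM on day 7 and at 20.1 to 45.2 FPKM on day 14. It was at 48.9, 38.6, 45.1 and 52.6 FPKM on day 21 and at 46.1, 40.1, 46.8 and 22.2 FPKM on day 30. Day 21 lay wholly above day 1, while replicate 4 of day 30 was within the range of day 1.

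Cox6b1 followed the same course (limma F test, adjusted p = 0.0142), with 257, 298, 338 and 287 FPKM on day 1, 399, 342, 378 and 459 FPKM on day 21 and 419, 367, 412 and 406 FPKM on day 30. None of the libraries of days 21 and 30 overlapped with those of day 1. Atp5b (limma F test, adjusted p = 0.0123) was at 213, 221, 230 and 210 FPKM on day 1 and at 253, 244, 249 and 274 FPKM on day 21. By day 30 it stood at 229, 238, 258 and 229 FPKM. Atp5mpl, a small membrane proteolipid of ATP synthase (limma F test, adjusted p = 0.0164), went from 70.0 to 88.5 FPKM on day 1 to 99.6 to 129 FPKM on day 21. Atp5e, the epsilon subunit (limma F test, adjusted p = 0.0262), went from 103 to 120 FPKM to 129 to 196 FPKM on those days.

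The calls for Uqcr11, Cox7a1 and Cox6b1 were kept when each of the 20 BCAS IF libraries was left out in turn, and that of Atp5b was lost only without day 21 replicate 4. The count of called members was less stable, from 3 without day 21 replicate 4 to 31 without day 7 replicate 2, and was 2 in a fit of the BCAS IF libraries alone. No member of complex II was called: its 4 genes had deviations of -0.05 ± 0.05 on day 1, 0.03 ± 0.06 on day 21 and -0.02 ± 0.02 on day 30 (SD, n = 4). Smooth muscle markers summed to medians of 5581 FPKM on day 1, 5319 FPKM on day 21 and 6297 FPKM on day 30, none of the 5 was called by the F test, and oligodendrocyte markers summed to medians of 15.4, 32.6 and 16.1 FPKM. The red blood cell markers summed to 66.6 to 3019 FPKM on day 21. Their part in the course was not tested.

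Against sham IF on day 30, BCAS IF had a median of 0.17 over the members, with 71 higher, and a median of 0.10 over tested genes with short coding sequences. By complex the medians were 0.18 for I, -0.09 for II, 0.22 for III, 0.21 for IV and 0.15 for V. By coding length the median was 0.29 for members under 300 bases and 0.02 for those of 600 bases or more. No member was called by limma or by limma-voom, 21 had an unadjusted p under 0.05, and 0.0891% of all tested genes were called. The libraries of 25 members were separated with BCAS higher, against 4.39% of all tested genes. Uqcr11 was at 255, 236, 222 and 227 FPKM in sham IF day 30, all below the 4 BCAS IF libraries, with a log2 difference of 0.33 ± 0.15 (SE; limma, adjusted p = 0.396). Atp5j2, subunit f of ATP synthase, had the smallest p, at 59.4, 69.8, 62.2 and 63.8 FPKM in sham and 82.2, 78.1, 99.8 and 80.5 FPKM after BCAS (0.41 ± 0.13, limma adjusted p = 0.206).

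**Figure D5:**
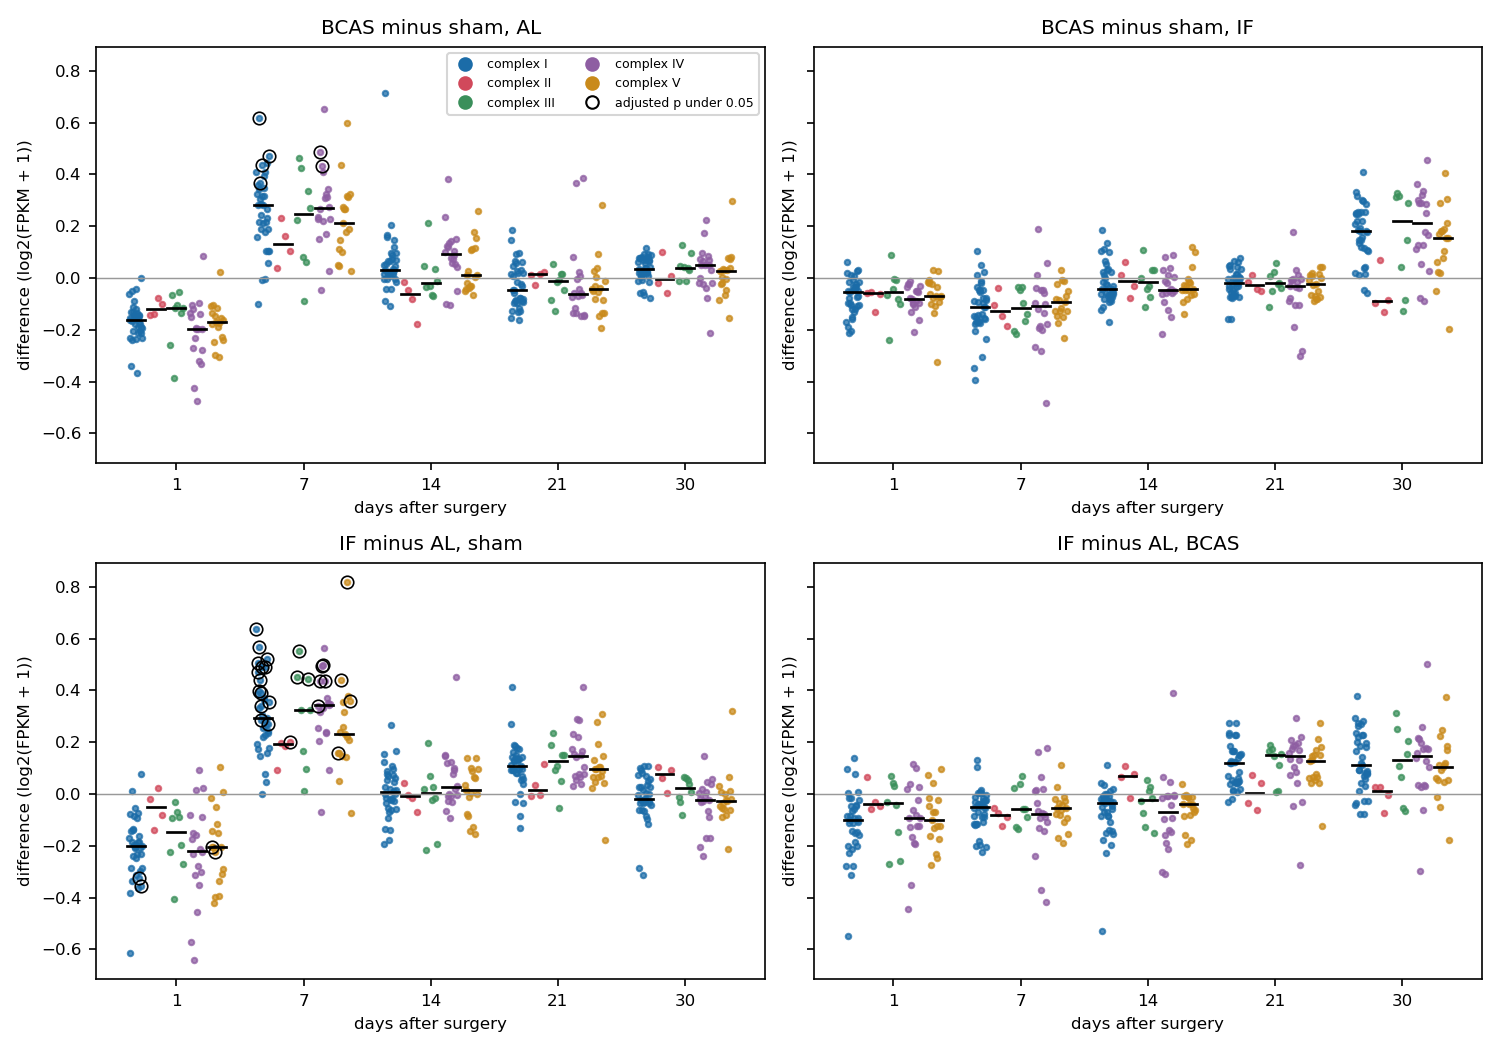
Log2 difference of each of the 82 members (dots) by day for BCAS against sham and IF against AL, by complex, with the median of each complex (black bars) and circles around genes with an adjusted p under 0.05. The medians of all members are 0.25 and 0.29 on day 7 for BCAS against sham with AL feeding and for IF against AL in sham, and -0.16 and -0.20 for these on day 1.

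Within sham AL, 55 of 82 members changed with day, against 17.3% of all tested genes (26 of complex I, 3 of II, 5 of III, 11 of IV and 10 of V). Atp5o, the oligomycin sensitivity protein that joins stalk and head of ATP synthase, had the lowest adjusted p (limma F test, 0.000995). It was at 69.7, 51.2, 55.5 and 33.8 FPKM on day 7 and at 58.4 to 82.3 FPKM in the 16 libraries of the other days. Replicate 1 of day 7 lay within that range and the other 3 below it. Cox6b1 (limma F test, adjusted p = 0.00104), Ndufa3 (0.00132), Ndufv3 (0.00148), Cox5b (0.00188) and Atp5e (0.00253) followed. Without day 7 replicate 4 the count was 4, and it was 0 without the libraries rich in short-gene fragments. Of the 5 smooth muscle markers 4 also changed with day in sham AL, as did 4 of 5 of oligodendrocytes, 2 of 5 tested neuronal ones and 3 of 5 of microglia and macrophages, and their part was not tested.

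In the other arms no member changed with day by limma or by limma-voom. At an unadjusted p under 0.05 there were 18 members in sham IF, where 1.88% of all tested genes were called, and 1 in BCAS AL, where 4.48% were. The effect of BCAS differed between days with AL feeding for 1 of 82 members, Ndufv3 (limma F test, adjusted p = 0.0476), against 1.97% of all tested genes. With IF feeding it differed between days for none by limma or by limma-voom, with 1 member at an unadjusted p under 0.05 and 0% of all tested genes called.

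Averaged over the 5 days, IF changed few members. In sham arteries 3 of 82 were higher and 1 lower, against 11.8% of all tested genes called higher and 11.9% called lower. Cox7a2l was at 182 ± 17.7 FPKM with AL (SD, n = 20) and 195 ± 13.0 FPKM with IF (SD, n = 19), Cox4i1 at 437 ± 54.0 and 472 ± 47.7 FPKM, and Cox6b2 at 59.1 ± 10.7 and 66.4 ± 11.1 FPKM. The ranges of the diets overlapped for all 3. Their log2 differences were 0.10 ± 0.04 (limma, adjusted p = 0.0284), 0.12 ± 0.04 (limma, adjusted p = 0.0458) and 0.17 ± 0.07 (limma, adjusted p = 0.0485).

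The median of the 82 members in sham was 0.04, and 65 were higher. These calls are small and depend on day 7: over days 1, 14, 21 and 30 alone, none of these 3 was called. After BCAS, IF against AL called no member by limma or by limma-voom, with 4 at an unadjusted p under 0.05, although 23.1% of all tested genes were called. The median over the members there was 0.01.

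BCAS against sham, averaged over the 5 days, called no member with either diet by limma or by limma-voom. With AL feeding 1 member had an unadjusted p under 0.05 and 0.987% of all tested genes were called, and the median over the members was 0.02. With IF 7 had an unadjusted p under 0.05, 0.758% of all tested genes were called, and the median was -0.02. The smallest p with IF was that of Sdhd (log2 difference -0.08, limma adjusted p = 0.0908). The interaction of BCAS and diet over the 5 days called none by limma or by limma-voom, with 0 members at an unadjusted p under 0.05 and 0.0127% of all tested genes called.

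The other single-day comparisons also called no member by limma or by limma-voom. For BCAS against sham with AL feeding, 3, 1 and 2 members had an unadjusted p under 0.05 on days 14, 21 and 30, where 0.337%, 0% and 0.357% of all tested genes were called. With IF these were 0, 5, 1 and 1 on days 1, 7, 14 and 21, with 0.00637%, 0.153%, 0% and 0% of all tested genes. For IF against AL in sham, 2, 5 and 3 members on days 14, 21 and 30 stood beside 4.39%, 0.382% and 4.82% of all tested genes. After BCAS, 4, 1, 3 and 9 members on days 1, 14, 21 and 30 stood beside 4.37%, 5.67%, 0.802% and 1.35%. On day 21 the members' median was 0.10 in sham, with 73 of 82 higher under IF, and 0.12 after BCAS, with 74 higher, against 0.06 and 0.05 over tested genes with short coding sequences. The interaction on days 1, 14, 21 and 30 had 2, 0, 1 and 1 members at an unadjusted p under 0.05 and 0% of all tested genes called.

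The other genes of the pathway were counted in 5 lists. Averaged over days, 11.8% of all tested genes rose and 11.9% fell with IF in sham, and 11.2% rose and 11.9% fell with IF after BCAS, and the counts below stand beside these shares. Of 5 tested subunits and carriers outside the naming rule, cytochrome c (Cycs), which carries electrons from complex III to IV, fell with IF averaged over days. On day 1 it was at 43.0, 34.5, 36.4 and 40.6 FPKM in sham AL day 1 and at 29.2, 25.1, 25.7 and 30.3 FPKM in sham IF day 1, with no overlap, and fell by 0.47 ± 0.08 in log2 (SE; limma, adjusted p = 0.000172). Averaged over the 5 days, Cycs fell by 0.16 ± 0.04 in sham (limma, adjusted p = 0.000478) and by 0.18 ± 0.04 after BCAS (limma, adjusted p = 8.4e-05). The difference was not seen on every day: on day 21 Cycs was at 38.0 ± 2.70 FPKM with IF and 35.04 ± 3.79 FPKM with AL in sham (SD, n = 4) and at 36.3 ± 1.54 and 35.6 ± 1.16 FPKM after BCAS, and on day 7 in sham it was at 33.3 ± 1.28 (SD, n = 3) and 33.9 ± 6.23 FPKM. None of these 3 differences was called. After BCAS Ndufab1, the mitochondrial acyl carrier protein in complex I, fell too, by 0.11 ± 0.04 (limma, adjusted p = 0.0330).

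Of 13 tested regulators of mitochondrial biogenesis, 6 fell and none rose with IF in sham averaged over days, and 2 fell and none rose after BCAS. The count after BCAS is a share near that of all tested genes called lower. Pprc1, a coactivator of the PGC-1 family, was at 2.86 ± 0.51 FPKM in sham AL (SD, n = 20) and 2.11 ± 0.35 FPKM in sham IF (SD, n = 19). Its log2 level fell by 0.31 ± 0.04 in sham (SE; limma, adjusted p = 1.14e-07) and by 0.34 ± 0.04 after BCAS (limma, adjusted p = 1.05e-08). Nrf1, which binds the NRF1 motif, fell by 0.12 ± 0.03 in sham (limma, adjusted p = 0.000770), and Gabpa, an ETS factor, fell by 0.14 ± 0.04 (limma, adjusted p = 0.00214). These are levels of 2 to 6 FPKM, low beside those of the subunits. Ppargc1a, which encodes PGC-1 alpha, was at 2.24 ± 0.29 and 2.19 ± 0.39 FPKM in sham AL and sham IF and was not called.

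Of 43 tested assembly factors, 4 rose and 3 fell with IF in sham averaged over days, and 3 rose and 7 fell after BCAS. The 7 of 43 called in sham are a lower share than that of all tested genes called in either direction (23.7%), and the 10 of 43 after BCAS are close to it (23.1%). Surf1, needed to assemble complex IV, was at 40.3 ± 4.54 FPKM in sham AL and 44.5 ± 3.15 FPKM in sham IF and rose by 0.14 ± 0.04 in log2 (SE; limma, adjusted p = 0.00197). Ndufaf4, an assembly factor of complex I, fell by 0.16 ± 0.04 in sham (limma, adjusted p = 0.00252) and by 0.20 ± 0.04 after BCAS (limma, adjusted p = 0.000179). On day 7, 3 assembly factors rose after BCAS with AL feeding (Surf1, Uqcc3 and Pet100) and 5 rose with IF in sham, with none falling in either, against 1.64% and 4.79% of all tested genes called higher. Both counts use the sham AL day 7 libraries, where Surf1 was at 41.5, 37.1, 33.3 and 28.3 FPKM and Pet100 at 8.31, 5.20, 3.25 and 4.86 FPKM. Within BCAS IF, 4 of the 43 changed with day, against 5.23% of all tested genes.

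Among 13 tested mitochondrially encoded subunits, 2 rose with IF in sham averaged over days and none fell. These included mt-Nd1, a core subunit of complex I in the membrane, at 8178 ± 1061 FPKM in sham AL and 9091 ± 913 FPKM in sham IF (log2 difference 0.16 ± 0.05, limma adjusted p = 0.0181). After BCAS 1 rose and none fell. Neither count stands clear of the shares of all tested genes called higher. Of 16 genes of the citric acid cycle and pyruvate dehydrogenase, 2 fell with IF in sham averaged over days (Dlat and Idh3a) and 1 rose after BCAS (Ogdh). The first is close to the share of all tested genes called lower and the second is below that called higher. Dlat, a core of pyruvate dehydrogenase, was the only one of the 16 called for BCAS averaged over days with AL feeding, where it fell by 0.11 ± 0.03 (SE; limma, adjusted p = 0.0184).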

How the data were processed

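RNA from cerebral arteries was sequenced in 78 libraries, built from 2 ug of total RNA extracted with a column kit, per the labels' protocols. The authors deposited 1 table with an FPKM value per gene and library. DESeq 1.10.1 is named in the submitters' processing notes, without its role; the aligner, the annotation and strandedness are not given in the sources used here. Gene coordinates in the table equal those of GENCODE M21 (GRCm38) for 79 of the 85 members, and coding lengths are from that annotation. Each FPKM step gave whole fragments (within 0.05 of a whole number, below 1000 fragments), from which depth was recovered.

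FPKM values were tested as log2(FPKM + 1), so differences understate changes of low genes. Genes at 1 FPKM or more in at least 3 libraries (15707) were fitted in R 4.3.3 with limma 3.58.1, its trend and robust options and 20 group means (statmod 1.5.0). Benjamini-Hochberg adjustment ran over all tested genes, with a threshold of 0.05, for 36 contrasts and F tests, each two-sided. The script was tested on simulated data. Groups follow the labels, and replicate numbers follow accession order only. No libraries were identical.

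The members, lists and named genes were chosen with earlier results of these data known. Named are the markers Ndufv3, Cox5a and Cox5b, the paralogue panel, the extremes of each complex in mean level and spread, called members (up to 10 each way over days, up to 6 in a single-day test) and up to 3 called genes of each pathway list. The smallest-p member is named in some comparisons without a call. Genes outside this rule (Ndufv3, Cox5b, Atp5k and Uqcr11 beside other comparisons, Ppargc1a) were named after their values were seen. Alternatives were another pseudocount (0.1), no filter, median-of-ratios scaling, removal of the gene-length trend (lowess span 0.3), only the compared groups in the fit, limma-voom on recovered fragments, leaving out the 3 libraries rich in short-gene fragments, days 1, 14, 21 and 30 only, and leaving out each library. Removal of the coding-length trend, and of the gene-length trend without those 3 libraries, were chosen after seeing the data. A called member is not reported here.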

Additional observations from a re-analysis of the deposited data

Results flagged for a closer look

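In 162 groups of 4 libraries (9 measures in 18 groups), 7 had 1 library far from the other 3 by Dixon's criterion, and chance gives about 1 in 20 such groups. The members' share of fragments was 1.51% in BCAS AL day 21 replicate 2, against 1.54% in each of the other 3. Cox4i2 was at 9.58 FPKM in BCAS AL day 30 replicate 3 (others 12.3 to 12.9) and at 19.5 FPKM in BCAS IF day 30 replicate 3 (others 11.2 to 12.3). Ndufa4l2 was at 14.9 FPKM in BCAS AL day 30 replicate 1 (others 18.2 to 18.7). Cox7a1 was at 21.8 FPKM in sham IF day 1 replicate 3 (others 28.9 to 30.2), and Cox6b1 at 393 FPKM in BCAS IF day 7 replicate 2 (others 270 to 289). Atp5b was at 272 FPKM in sham AL day 1 replicate 1 (others 247 to 251), the library without which no member was called between diets on that day.

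The effect of BCAS with AL feeding differed between days for Ndufv3 (limma F test, adjusted p = 0.0476). This call was lost in 29 of the 39 fits that left out 1 library.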

How the results depend on the processing

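No paired analysis was possible because the labels give no replicate numbers shared between groups. The reported counts of called members are given in a fixed order: BCAS against sham with AL feeding on day 7 (6), IF against AL in sham on day 7 (27), on day 1 (4) and over 5 days (4), days within sham AL (55), days within BCAS IF (16), and the BCAS effect across days with AL feeding (1). Another pseudocount and limma-voom left each count within 1.5 times. So did median-of-ratios scaling, but its factors were 0.9995 to 1.0003 over the libraries, so it could hardly change a count. In that order they were 4, 16, 4, 0, 45, 5 and 0 with no filter on low values, and 2, 6, 12, 1, 30, 23 and 0 with the gene-length trend removed. With only the compared groups in the fit they were 0, 0, 0, 0, 0, 2 and 0. Without the 3 libraries rich in short-gene fragments they were 0, 0, 13, 1, 0, 35 and 0, and 0, 0, 17, 2, 0, 32 and 0 with the gene-length trend also removed. With the coding-length trend removed they were 4, 23, 7, 11, 33, 21 and 3.

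For IF against AL in sham over days, the calls were in the lower direction only, the reverse of the majority, where 1 or 2 are given above and over days 1, 14, 21 and 30 (1). Counts above 0 appeared in contrasts with none reported. They were 2 for IF against AL after BCAS over days with the gene-length trend removed, with only the compared groups and over days 1, 14, 21 and 30, 3 with the trend and libraries removed, and 7 with the coding-length trend removed. That contrast on day 1 gave 1 under each trend removal, BCAS against sham over days gave 1 (AL, 4 days) and 2 and 1 (IF, trend removals), and days within sham IF gave 2, 1, 1 and 6. BCAS against sham on single days gave 1 with AL on day 1 and 1 with IF on day 7. The cause was not tested.

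Leaving out each library in turn gave 0 to 58, 0 to 65, 0 to 9, 0 to 14, 4 to 72, 3 to 31 and 0 to 30 in the same order. For IF against AL in sham over days, leaving out sham AL day 7 replicate 4 left 1 call, lower. The interaction on day 7 gave 0 to 33. BCAS against sham on day 1 with AL, BCAS against sham over days with IF, IF against AL after BCAS over days, and days within sham IF each gave 0 to 1. Counts of 3 or 4 libraries a group limit every single-day call.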
